A study of Mus musculus with 6 samples.

Results

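Mt1, Mt2 and Mt3 are the 3 metallothionein genes described here, out of 32285 genes in a single-cell RNA count matrix of the mouse cortex after experimental stroke. They were found by their symbols (ENSMUSG00000031765, ENSMUSG00000031762 and ENSMUSG00000031760), and Mt4 (ENSMUSG00000031757), the remaining gene of the family, was read beside them. The study profiled live cortical cells depleted of mature neurons from male RGS5::GFP heterozygous mice aged 8 to 12 weeks, in which a GFP reporter replaces 1 allele of the pericyte gene Rgs5, so that all groups carried 1 working copy. All animals had a permanent occlusion of the distal middle cerebral artery, and cells were taken from the ipsilateral or the contralateral side at 1, 12 or 24 h, with 1 library for each of these 6 groups. The methods of the study give 3 mice for single-cell sequencing, so the 6 libraries do not stand for 6 independent animals. In the matrix the 6 libraries differ only by a number, and no label or file used here links a number to its group. Values are therefore given for each numbered library, no library is assigned to a side or an hour, and no test between conditions was possible.

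Metallothioneins are small, cysteine-rich proteins that bind zinc and copper and buffer free metal ions in the cell. Mt1 and Mt2 are made in most tissues, and their transcription rises with metals through the factor MTF-1 and also with glucocorticoids, cytokines and oxidative stress. Mt3, first known as growth inhibitory factor, is found mainly in the brain, and it responds little to metals.

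The 4 genes lie in a row on the plus strand of chromosome 8 (GRCm38, the same assembly as the mm10 build named for the files, with GENCODE M21 gene models). Mt4 spans chr8:94137197-94139031, Mt3 chr8:94152607-94154146, Mt2 chr8:94172664-94173568 and Mt1 chr8:94179082-94180327, with 5513 bases between the end of Mt2 and the start of Mt1. No run of 60 bases in the last 400 bases of their coding transcripts occurred in a transcript of any other gene, so 3′ reads could be assigned to single members. The 250 bases before each annotated RefSeq start (GRCm38.p6) are given for the 3 genes to show where the letters of the metal response element, to which MTF-1 binds, occur in them. Capitals mark every match to its core, TGCACNC or TGCGCNC, on either strand.

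Mt1 promoter, chr8:94178839-94179088, strand +: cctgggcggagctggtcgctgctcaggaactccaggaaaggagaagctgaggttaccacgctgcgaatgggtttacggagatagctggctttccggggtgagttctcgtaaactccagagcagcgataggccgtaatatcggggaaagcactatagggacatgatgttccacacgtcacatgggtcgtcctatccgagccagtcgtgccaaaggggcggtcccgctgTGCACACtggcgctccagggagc
Mt2 promoter, chr8:94172368-94172617, strand +: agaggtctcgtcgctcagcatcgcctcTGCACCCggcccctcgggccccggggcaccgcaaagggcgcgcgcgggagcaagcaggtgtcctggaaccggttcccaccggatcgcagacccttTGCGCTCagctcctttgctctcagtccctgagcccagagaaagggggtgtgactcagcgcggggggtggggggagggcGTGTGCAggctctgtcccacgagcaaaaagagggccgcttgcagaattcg
Mt3 promoter, chr8:94152357-94152606, strand +: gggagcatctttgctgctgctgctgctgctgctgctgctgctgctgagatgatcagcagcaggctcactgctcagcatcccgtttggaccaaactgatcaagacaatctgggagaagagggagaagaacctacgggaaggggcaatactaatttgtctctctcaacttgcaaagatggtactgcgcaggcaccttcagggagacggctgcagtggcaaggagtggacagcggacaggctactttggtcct

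The Mt2 window held 3 metal response cores, that of Mt1 held 1, and that of Mt3 held none. At least 1 core was present in 21.4% of the 32817 promoter windows of this length, and at least 3 cores were present in 1.26%. The annotated starts lie well upstream of the coding sequence, and from the start to the start codon Mt1 held 4 further cores in 222 bases, Mt2 held 4 in 230 bases and Mt3 held 3 in 193 bases. The hypoxia core ACGTG or GCGTG, read on both strands, matched at 2 places in the Mt1 window, at 1 in that of Mt2 and at none in that of Mt3, against 38.6% of all windows with at least 1. The match in Mt2 overlapped a metal response core. The antioxidant response element TGACNNNGC matched 1 time in Mt2 and not in the windows of Mt1 and Mt3, against 10.2% of all windows. The STAT site TTCNNNGAA was held by 7.01% of windows and the full palindromic glucocorticoid response element by 0.00914%, and neither was found in the 3 windows. These are matches of letters in a short window and not measured sites.

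The 6 libraries gave 17357 cells, from 1221 to 5873 per library, with median depths of 5053 to 5660.5 UMIs (unique molecular identifiers, each counting 1 captured RNA molecule). Cell classes were named from fixed marker genes after clustering without the metallothioneins, and all 6 or 7 markers of each named class were over 2 times higher in it than in the other cells. Some of the 26 clusters, with 288 cells in all, stayed unnamed. Between libraries the median mitochondrial share ran from 1.13% to 3.83% and hemoglobin from 71.5 to 5392 CPM, and 26 barcodes occurred in more than 1 library. Levels are given as CPM, the UMIs of a gene in 1000000 UMIs of the cells named. Ranges in brackets are exact 95% counting intervals of the pooled cells. They cover counting error only and not differences between animals.

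Over all cells, Mt1 was the 74th most abundant gene, with 138036 UMIs or 1304 CPM. Mt3 had 31997 UMIs or 302 CPM and Mt2 17974 UMIs or 170 CPM. As each molecule is counted at its 3′ end, these levels were not divided by gene length. Mt4, which is known from stratified squamous epithelium, had 7 UMIs, all of them in 1 oligodendrocyte-like cell of library 4.

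**Figure D1:**
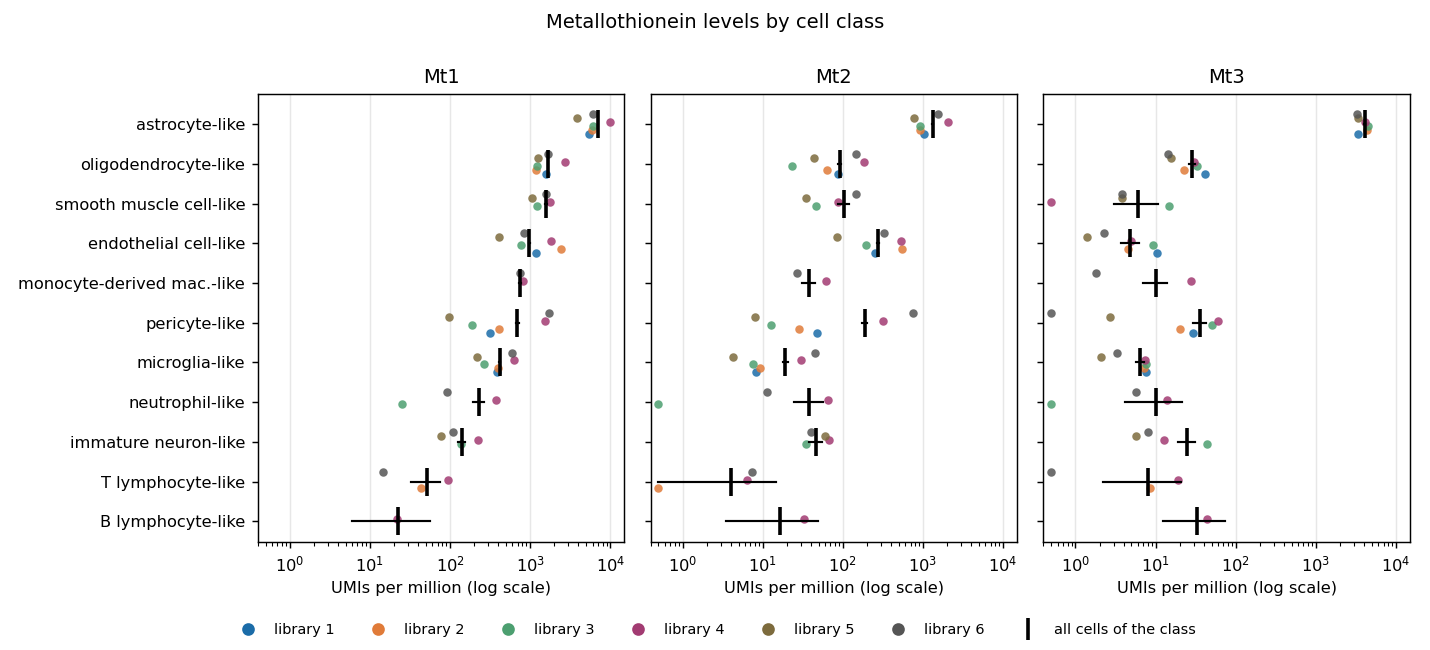
Level of Mt1, Mt2 and Mt3 (CPM, log axis) in each cell class with at least 50 cells. Coloured points are single libraries with at least 20 cells of the class (a level of 0 is drawn at 0.5), and black marks with bars are all cells of the class with the 95% counting interval. Astrocyte-like cells sit highest for all 3 genes, by 4.20 times for Mt1, 4.75 times for Mt2 and 115 times for Mt3 over the next class.

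Among classes of at least 50 cells, astrocyte-like cells had the highest level of all 3 genes. Mt1 reached 7031 CPM (6971–7093) in their 1167 cells, 4.20 times (4.15–4.26) the level of oligodendrocyte-like cells, the next class. In libraries 1 to 6 the astrocyte-like level of Mt1 was 5364, 5927, 6014, 9937, 3880 and 6050 CPM, against 1578, 1180, 1227, 2757, 1252 and 1676 CPM in oligodendrocyte-like cells. Astrocyte-like cells were higher in all 6 libraries, and the lowest of their values lay above the highest of the other class.

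Below astrocyte-like cells, and among classes of at least 50 cells, Mt1 was highest in oligodendrocyte-like cells (1673 CPM) and smooth muscle cell-like cells (1576 CPM), followed by endothelial cell-like (977 CPM), monocyte-derived macrophage-like (749 CPM) and pericyte-like cells (695 CPM). The pericyte-like level joined a small cluster led by Il11 at 4615 CPM and the main pericyte-like cluster at 226 CPM. Microglia-like cells, the largest class with 8132 cells, had 420 CPM. Neutrophil-like cells had 230 CPM, neuroblast or immature neuron-like cells 139 CPM, T lymphocyte-like cells 51 CPM and B lymphocyte-like cells 22.2 CPM. Apart from the step from astrocyte-like to oligodendrocyte-like cells, the library values of every pair of neighbours in this order overlapped, so only that step exceeded the unpaired spread between libraries. Within libraries holding at least 20 cells of both, the order to the next class was also counted. It held in 4 of 4 libraries for oligodendrocyte-like, 3 of 4 for smooth muscle cell-like and 2 of 2 for endothelial cell-like cells. For pericyte-like cells it held in 3 of 6, for microglia-like in 3 of 3 and for neutrophil-like in 1 of 3. For neuroblast or immature neuron-like cells it held in 2 of 2, and for T lymphocyte-like cells in 1 of 1. The order of monocyte-derived macrophage-like and pericyte-like cells was the opposite in both libraries that held at least 20 cells of each.

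Mt2 was ordered differently. Astrocyte-like cells had 1315 CPM (1289–1342), 4.75 times (4.57–4.94) the 277 CPM (268–286) of endothelial cell-like cells, which came next and were followed by pericyte-like (187 CPM), smooth muscle cell-like (102 CPM) and oligodendrocyte-like cells (91.4 CPM). Microglia-like cells were near the bottom, with 19.1 CPM (17.8–20.4). The pericyte-like level joined unlike clusters, as 63 cells of a cluster led by Il11 had 1565 CPM. The main pericyte-like cluster, with 824 of the 887 cells, had 21.9 CPM, close to microglia-like cells. The astrocyte-like level was 1032, 918, 914, 2037, 783 and 1541 CPM in libraries 1 to 6, and the endothelial cell-like level 250.4, 546, 195, 528, 85.7 and 326 CPM. Here too the astrocyte-like cells were higher in all 6 libraries without overlap, whereas the neighbours from endothelial cell-like down to microglia-like cells overlapped in every pair.

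Mt3 was found almost wholly in astrocyte-like cells, which held 29743 of its 31997 UMIs. Their level was 4091 CPM (4045–4138), and it was 3372, 4338, 4475, 4170, 3400 and 3265 CPM in libraries 1 to 6. No other class of at least 50 cells exceeded 35.5 CPM, the level of pericyte-like cells, which gives a ratio of 115 (96.8–139). With free RNA assumed at 5% and subtracted, this ratio was 489.6. Single cells held 31 and 20 of the 125 Mt3 UMIs of pericyte-like cells. A small class of 22 choroid plexus-like cells, set by the transthyretin gene Ttr, had 5322 CPM of Mt3 (4981–5679), with at least 1 UMI in all 22 cells. With all cells reduced to 1000 UMIs, 84.9% of astrocyte-like cells still had Mt3, against 0.547% of endothelial cell-like cells and 0.529% of microglia-like cells.

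Mt3 outside astrocyte-like cells was set beside astrocyte RNA, since droplets also capture RNA that is free in the suspension. In barcodes with 1 to 50 UMIs, which stand for free RNA, Mt3 had 0.333 UMIs for each UMI of the 6 astrocyte markers together. The ratio was 0.259 (0.255–0.262) in astrocyte-like cells, 0.229 (0.211–0.249) in oligodendrocyte-like cells and 0.265 (0.216–0.323) in pericyte-like cells. In choroid plexus-like cells it was 7.77 (6.403–9.50). In endothelial cell-like and microglia-like cells it was 0.0257 and 0.0341, where the marker list also holds genes that these classes express themselves, such as Gja1 at 154 CPM in endothelial cell-like and Slc1a3 at 166 CPM in microglia-like cells.

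The same comparison bounds what free RNA could add to the other members. If all Mt3 of a class came from free RNA of its own libraries, this RNA would make up 1.12% of the UMIs of endothelial cell-like cells and carry 19.3 CPM of Mt1 and 2.50 CPM of Mt2, against the 977 and 277 CPM measured. For microglia-like cells it would carry 23.7 CPM of the 420 CPM of Mt1 and 3.05 CPM of the 19.1 CPM of Mt2. For oligodendrocyte-like cells it would carry 100 CPM of the 1673 CPM of Mt1. For pericyte-like cells it would carry 122 CPM of the 695 CPM of Mt1 and 15.5 CPM of the 187 CPM of Mt2. Single cells held 31 and 20 of the 125 Mt3 UMIs of this class, so these amounts may be too high. For T lymphocyte-like cells free RNA would carry 35.2 CPM of 51 CPM. For B lymphocyte-like cells the amount, 151 CPM, exceeded the 22.2 CPM measured. The low Mt1 of lymphocytes could therefore not be told from free RNA at this depth. For neuroblast or immature neuron-like cells free RNA would carry 87.3 CPM of 139 CPM, so most of their Mt1 could be free RNA as well.

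**Figure D2:**
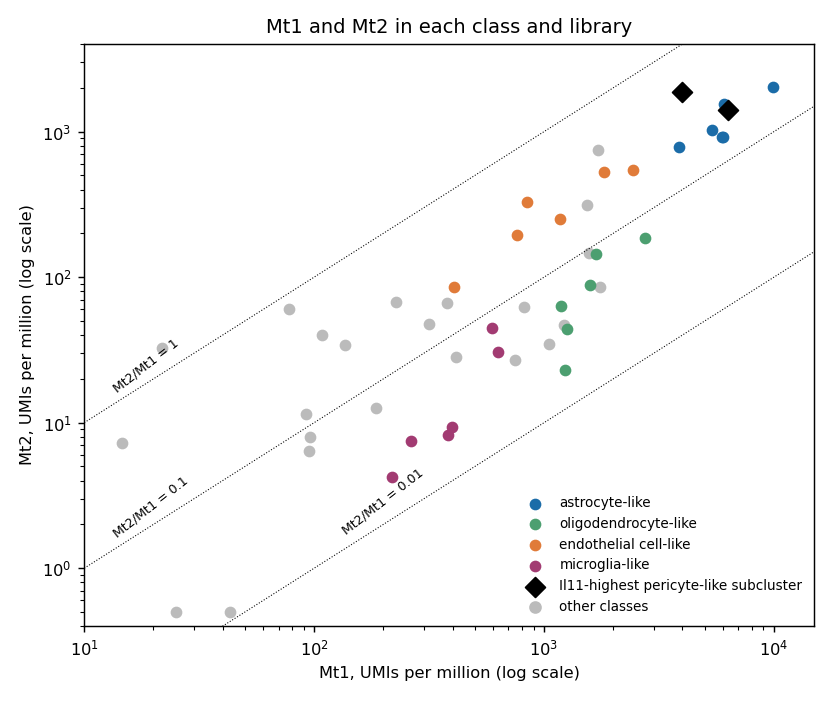
Mt2 against Mt1 (CPM, both axes log) for each class and library with at least 20 cells; dotted lines mark equal ratios, grey points are the other classes and black diamonds are the Il11-highest pericyte-like subcluster in its 2 libraries. Endothelial cell-like points lie at 0.211 to 0.386 Mt2 UMIs per Mt1 UMI and microglia-like points at 0.0193 to 0.0749.

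The balance of the neighbouring genes Mt1 and Mt2 differed between classes, in nearly the same order in every library. Over all cells there were 0.130 Mt2 UMIs (0.128–0.132) for each Mt1 UMI. Endothelial cell-like cells had 0.283 (0.273–0.294), astrocyte-like cells 0.187 (0.183–0.191), oligodendrocyte-like cells 0.0546 (0.0524–0.0570) and microglia-like cells 0.0454 (0.0423–0.0486). From library to library the ratio ranged from 0.211 to 0.386 in endothelial cell-like, from 0.152 to 0.255 in astrocyte-like, from 0.0188 to 0.0861 in oligodendrocyte-like and from 0.0193 to 0.0749 in microglia-like cells. In each of the 6 libraries endothelial cell-like cells were above astrocyte-like cells, and these were above both oligodendrocyte-like and microglia-like cells. The latter pair kept its order in 5 of the 6 libraries. Smooth muscle cell-like cells had a low ratio of 0.0649 (0.0556–0.0753), so that they held nearly as much Mt1 as oligodendrocyte-like cells with little Mt2.

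**Figure D3:**
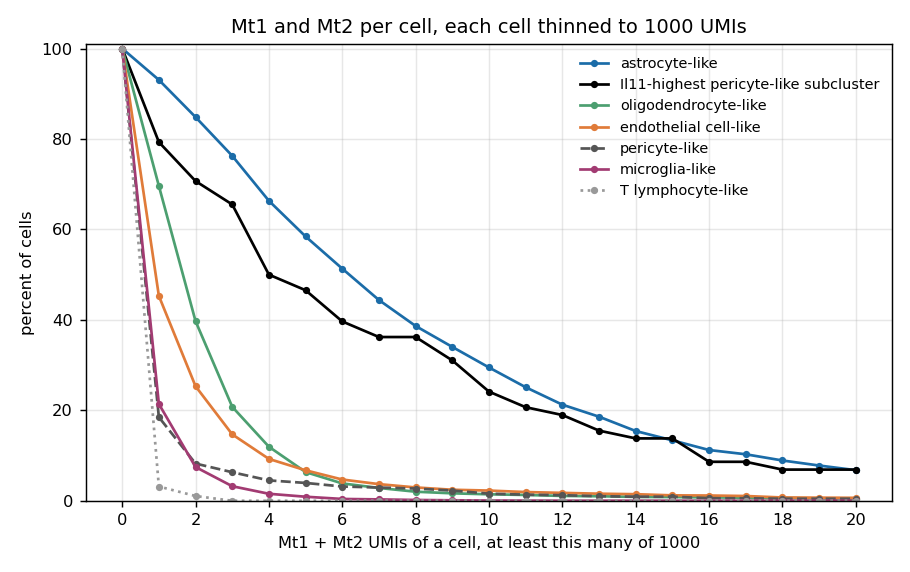
Share of cells (percent) with at least the given number of Mt1 and Mt2 UMIs together, after each cell was thinned to 1000 UMIs. Of astrocyte-like cells 29.5% had 10 or more, of the Il11-highest pericyte-like subcluster 24.1% and of microglia-like cells 0.0615%.

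Within a class, cells also differed from each other. At 1000 UMIs per cell, Mt1 was detected in 90.1% of astrocyte-like cells (88.3–91.8%), 68.9% of oligodendrocyte-like cells (67.1–70.6%), 40.1% of endothelial cell-like cells (38.2–41.9%), 21.1% of microglia-like cells (20.2–21.99%) and 3.16% of T lymphocyte-like cells (0.656–8.95%). No cell was below this depth. At full depth, with class medians of 5607, 8871, 4038, 5150 and 4707 UMIs, the shares were 98.3%, 97.5%, 66.0%, 51.5% and 15.8%. The tenth of cells with the most Mt1 held 37.3% of its UMIs in astrocyte-like and 38.7% in oligodendrocyte-like cells, but 58.9% in endothelial cell-like, 63.7% in microglia-like and 88.1% in pericyte-like cells. Cells with Mt2 had Mt1 more often than cells without it. At 1000 UMIs, Mt1 was present in 71.5% of endothelial cell-like cells with Mt2 and in 33.1% of those without, and in 70.1% and 20.6% of microglia-like cells. In neuroblast or immature neuron-like cells the shares were low in both, at 15.4% and 8.31%.

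**Figure D4:**
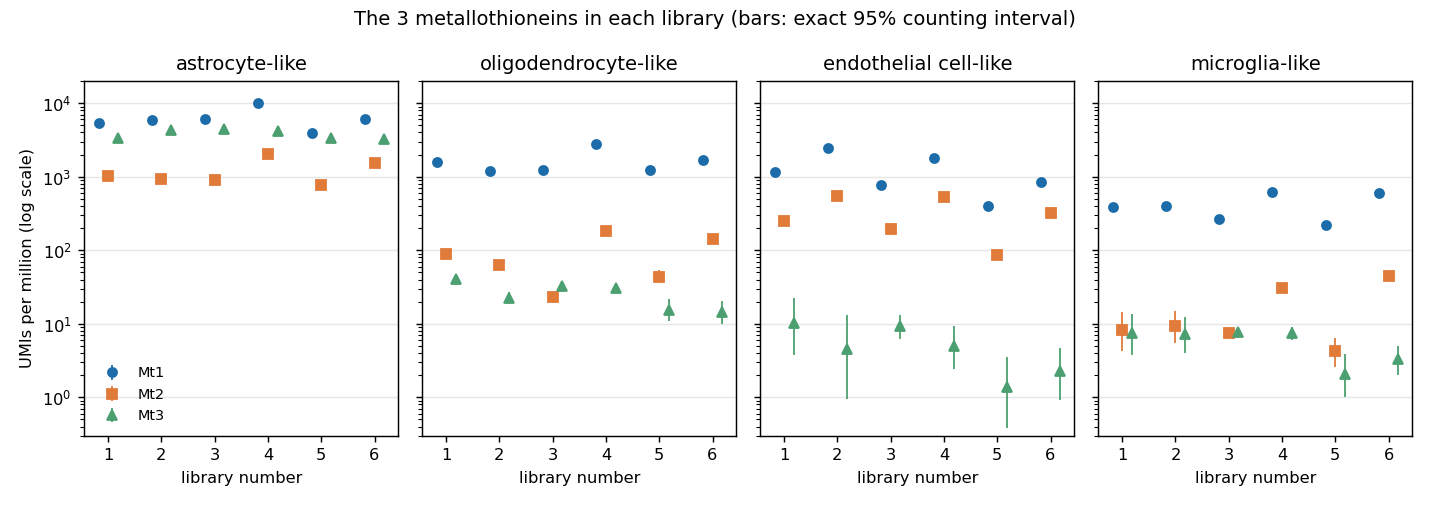
Level of the 3 genes (CPM, log axis) in each numbered library for 4 classes that had at least 20 cells in all 6 libraries, with exact 95% counting intervals. Mt1 and Mt2 of endothelial cell-like cells are lowest in library 5 and highest in library 2, whereas Mt3 of astrocyte-like cells stays between 3265 and 4475.

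Differences between libraries were set against those of all genes with at least 20 CPM in the class. The highest library was at least 4 times the lowest for 8.88% of genes in astrocyte-like, 5.89% in endothelial cell-like, 3.04% in microglia-like, 1.95% in oligodendrocyte-like and 13.1% in pericyte-like cells. These shares are larger where a library holds few cells, such as the 32 astrocyte-like cells of library 5. In astrocyte-like cells none of the 3 members passed this fold, with spans of 2.56 for Mt1, 2.60 for Mt2 and 1.37 for Mt3. Mt1 and Mt2 were lowest in library 5 and highest in library 4, and without library 4 the span of Mt2 fell to 1.97.

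In endothelial cell-like cells Mt1 was 1168, 2428, 761, 1815, 406 and 843 CPM in libraries 1 to 6. Both Mt1, with a span of 5.98 (5.54–6.46), and Mt2, with a span of 6.37 (5.401–7.52), were among the genes past 4 times. Library 5 set the low end. Without it the span of Mt2 was 2.80 (2.45–3.19), and the lowest Mt1 was the 761 CPM of library 3, so that neither gene was past 4 times. In oligodendrocyte-like cells Mt2 spanned 7.99 times, from 23.1 CPM in library 3 to 184 CPM in library 4, whereas Mt1 spanned 2.34 times. Without library 3 the lowest Mt2 was 43.7 CPM, in library 5. In microglia-like cells Mt1 was 382, 397, 264, 629, 219 and 594 CPM, a span of 2.87. Their Mt2 ran from 4.21 CPM in library 5 to 44.5 CPM in library 6, but at 19.1 CPM over all cells it was below the minimum for this comparison. In pericyte-like cells all 3 members passed 4 times, with Mt1 between 96.1 CPM in library 5 and 1723 CPM in library 6 and Mt2 between 8.01 and 743 CPM in the same libraries. The next lowest values, in library 3, were 186 CPM of Mt1 and 12.7 CPM of Mt2, and the next highest, in library 4, were 1536 and 314 CPM. The Il11-led cluster 20 is part of this class in these 2 libraries only, with 29 cells in library 4 and 34 in library 6, so the spans of Mt1 and Mt2 compare libraries with different clusters. In cluster 6, the main pericyte-like cluster, Mt1 ran from 96.1 CPM in library 5 to 414 CPM in library 2, and Mt2 from 8.01 CPM in library 5 to 51.1 CPM in library 6. Mt3 of the class ran from 0 UMIs in library 6 to 59.5 CPM in library 4, where 1 cell held 20 of its 39 UMIs.

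Free RNA of Mt1 also differed between libraries, at 2359, 1706, 1546, 3278, 864 and 1584 CPM, highest in library 4 and lowest in library 5 as in astrocyte-like cells. Its part in the differences between libraries was not tested. The chemistry of the libraries cannot be told apart from their hour, since the labels give a single-index kit at 1 and 24 h and a dual-index kit at 12 h. The sequencer cannot be told apart from the hour either. The methods of the study give a NovaSeq for the 1 and 12 h libraries and a HiSeq for those of 24 h.

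**Figure D5:**
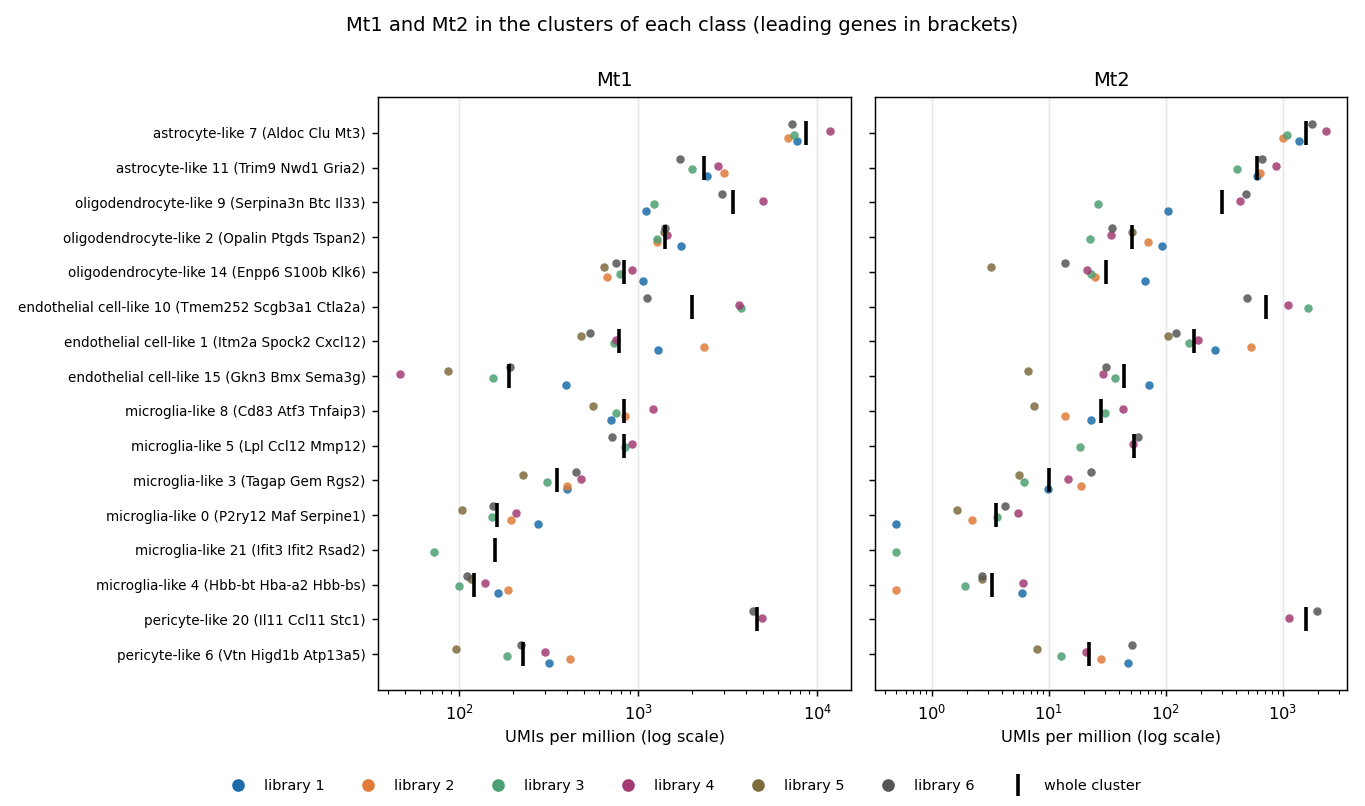
Mt1 and Mt2 (CPM, log axis) in the clusters of 5 classes with at least 50 cells, named by cluster number and leading genes; coloured points are libraries with at least 20 cells of the cluster (0 drawn at 0.5) and black marks are whole clusters. The Il11-led pericyte-like cluster has 4615 CPM of Mt1 and the main pericyte-like cluster 226 CPM.

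The clusters inside a class also differed in Mt1 and Mt2. These genes had no part in forming the clusters, although genes that vary with them did, so the ratios are given as descriptions. Of the endothelial cell-like clusters, cluster 10 (540 cells, led by Tmem252, Scgb3a1 and Ctla2a, with Ackr1 and Vwf among its leading genes) had 2008 CPM of Mt1 and 712 CPM of Mt2. The largest, cluster 1 (1923 cells), had 776 and 173 CPM, and cluster 15 (281 cells, led by Gkn3, Bmx and Sema3g, of which Bmx and Sema3g are markers of arterial endothelium) had 190 and 43.9 CPM. Cluster 10 exceeded cluster 15 in Mt1 by 10.6 times (9.40–12.0) and in Mt2 by 16.2 times (12.7–21.1), and was higher in all 3 libraries that held at least 20 cells of both.

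Cluster 10 was spread unevenly, with 178 cells in library 4, 320 in library 6 and 2 to 22 in each of the others. The library differences of endothelial cell-like cells nevertheless remained inside cluster 1 alone, where Mt1 was 1290, 2325, 735, 751, 478 and 541 CPM in libraries 1 to 6 and Mt2 spanned 5.19 times. Library 2 was the highest and library 5 the lowest in cluster 1 as in the whole class, and library 4 was no longer near the top.

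Astrocyte-like cells formed 2 clusters. Cluster 7 (747 cells, led by Aldoc, Clu and Mt3) had 8648 CPM of Mt1, 1562 CPM of Mt2 and 5078 CPM of Mt3. Cluster 11 (420 cells, led by Trim9, Nwd1 and Gria2) had 2328, 596 and 1220 CPM. All 3 genes were higher in cluster 7 in each of the 5 libraries with at least 20 cells of both, by 3.71 times for Mt1, 2.62 times for Mt2 and 4.16 times for Mt3 over all cells.

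In oligodendrocyte-like cells, cluster 9 (599 cells, led by Serpina3n, Btc and Il33) had the most over all cells, with 3399 CPM of Mt1 and 303 CPM of Mt2. The main cluster 2 had 1410 and 51.3 CPM, and cluster 14 (led by Enpp6, S100b and Klk6) had 831 and 30.9 CPM. Called doublets, barcodes scored as more than 1 cell, made up 12.5% of cluster 9. They made up 0.107% of cluster 2 and 1.58% of cluster 14. With clustering at a higher resolution, the cluster led by Serpina3n, Btc and Il33 held 131 cells. A separate oligodendrocyte-like cluster of 160 cells then had 32.5% doublets. The part of doublets in the levels of cluster 9 was not tested. Within cluster 9 the libraries differed, with 1111 CPM of Mt1 in library 1, 1232 in library 3, 4978 in library 4 and 2932 in library 6. In cluster 2 all 6 libraries lay between 1278 CPM, in library 3, and 1729 CPM, in library 1, a span of 1.35. Mt1 of cluster 9 was thus above that of cluster 2 in libraries 4 and 6, but below it in libraries 1 and 3.

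Microglia-like clusters spanned 120 to 829 CPM of Mt1. Cluster 0 (2383 cells, led by P2ry12, a gene of homeostatic microglia) had 163 CPM of Mt1 and cluster 4 (1773 cells) 120 CPM. Cluster 21 (58 cells, led by the interferon-induced genes Ifit3, Ifit2 and Rsad2) had 158 CPM, and cluster 3 (1838 cells, led by Tagap, Gem and Rgs2) lay between, at 350 CPM (338–361). Hemoglobin genes led cluster 4, ahead of the microglia genes P2ry12 and Gpr34. Cluster 5 (1401 cells, led by Lpl, Ccl12 and Mmp12) and cluster 8 (679 cells, led by Cd83, Atf3 and Tnfaip3) had 828 and 829 CPM. They differed in Mt2, with 53.8 CPM in cluster 5 and 28.2 CPM in cluster 8. Cluster 5 held 793 cells of library 4, 569 of library 6 and 2 to 22 of each other library. Inside it Mt1 was 843, 923 and 718 CPM in libraries 3, 4 and 6. An unnamed cluster led by the antigen-presentation genes H2-Eb1, H2-Ab1 and H2-Aa had 1588 CPM of Mt1 and 124 CPM of Mt2.

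Mt2 was also read in mural cells, the pericytes and smooth muscle cells that wrap the capillaries and arterioles. These cells were clustered again, and the pericyte-like subcluster with the most Il11, a cytokine of the interleukin 6 family, was set against the other pericyte-like mural cells. It had 58 cells, 24 in library 4 and 34 in library 6, and none in the others. Mt1 was 4852 CPM (4612–5101) in it and 337 CPM (316–359) in the other 809 cells, a ratio of 14.4 (13.3–15.6). Mt2 was 1700 CPM (1559–1849) and 38.7 CPM (31.7–46.8), a ratio of 43.9 (35.6–54.5). The study had already listed Mt2 among the most raised genes of its Il11-expressing pericyte subcluster at 24 h, from these same data. Its RT-qPCR, run on sorted pericytes as a whole, did not bear this out for Mt2, as the other groups varied widely. Without library 6 the ratio of Mt1 was 21.7 (19.5–24.1). Of all genes with at least 20 CPM in these cells, 7.68% were higher in the subcluster by 2 times with the interval above 1, and 17% were lower by as much.

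At 1000 UMIs per cell, Mt2 was detected in 60.3% of the cells of the subcluster (46.6–73.0%) and in 1.85% of the others (1.04–3.04%). Both genes were found together in 56.9% of its cells and in 1.11% of the others. Mt2 per Mt1 was 0.350 (0.317–0.387) in the subcluster, against 0.115 (0.0932–0.141) in the other cells. Mt3 had 1 UMI in the subcluster and 111 in the others, or 3.16 and 40.2 CPM. Of the latter, 1 cell of library 3 held 31 UMIs and 1 cell of library 4 held 20. A subcluster of 364 cells led by Spp1, Slc1a2 and Sfrp2 held 102 of the 111, at 84.6 CPM. The remaining pericyte-like subclusters had 6.61, 5.44, 6.91 and 0 CPM, so a low Mt3 was not particular to the Il11-highest subcluster. The 6 astrocyte markers moved with Mt3, summing to 28.4 CPM in the Il11-highest subcluster and 138 CPM in the other cells. Aqp4 and Gfap were at 0 in the Il11-highest subcluster, and the part of these markers in the difference was not tested.

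The difference was present within both libraries. In library 4 the subcluster had 6339 CPM of Mt1 and 1416 CPM of Mt2, against 223 and 15.3 CPM in the other pericyte-like cells of this library. In library 6 it had 3995 and 1863 CPM, against 702 and 113 CPM. The ratios were 28.5 (23.1–35.4) and 5.69 (4.89–6.66) for Mt1, and 92.7 (44.0–234) and 16.5 (11.6–24.1) for Mt2. Mt1 was thus higher in library 4 and Mt2 in library 6.

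A further subcluster of 35 cells, led by Ccl19, Tmem176a and Col3a1, was also high, at 3813 CPM of Mt1 and 466 CPM of Mt2. Of its Mt1 UMIs, 263 came from 1 cell of library 2, and without that cell it had 2068 CPM. This subcluster was counted with the other cells above, although that cell fell in the smooth muscle cell-like class when all cells were clustered. In the pericyte-like class of library 2 no cell held more than 24 Mt1 UMIs. The other pericyte-like mural cells thus include at least this cell, which the class order counts as smooth muscle cell-like. The same cell set the Mt1 of the other cells of library 2, which was 1471 CPM with it and 342 CPM without it. Leaving the Ccl19-led subcluster out, the other 774 cells had 146 CPM of Mt1 and 15.3 CPM of Mt2. The ratios to the Il11-highest subcluster then were 33.2 (29.7–37.2) and 111 (80.7–158). Inside library 4 they were 37.4 and 100.2, and inside library 6 they were 22.002 and 64.1. The pooled levels of the 774 cells lie close to the most that free RNA could carry in the whole pericyte-like class, 122 CPM of Mt1 and 15.5 CPM of Mt2. These amounts take all 125 Mt3 UMIs of the class as free RNA, although single cells held 31 and 20 of them, so they may be too high. Mt3 was also uneven between subclusters. The Spp1-led subcluster of 364 cells had 84.6 CPM of Mt3, 141 CPM of Mt1 and 14.9 CPM of Mt2. Those led by Dbp, Gm30075 and AI593442 had only 6.61, 5.44 and 6.91 CPM of Mt3. Their Mt1 was 202, 100.6 and 79.5 CPM, and their Mt2 was 17.2, 13.6 and 13.8 CPM. The amounts were not computed by subcluster, so the closeness holds for pooled levels only. The part of free RNA in these ratios was not tested.

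The markers of these cells differed from those of the other pericyte-like cells. All 6 pericyte markers were present in the Il11-highest subcluster, but at 9745 CPM in sum, against 29698 CPM in the other cells, and Rgs5 itself was 910 against 3936 CPM. Fibroblast markers summed to 1750 against 286 CPM, with 1535 CPM from Dcn and with Col1a1 and Pdgfra at 0. The sum was 199 CPM in library 4 and 2645 CPM in library 6. In the same libraries Mt1 was 6339 and 3995 CPM, and Mt2 was 1416 and 1863 CPM. The Ccl19-led subcluster also departed from the other cells, with Atp13a5 at 0 against 1313 CPM, Abcc9 at 216 against 1317 CPM, Acta2 at 1593 against 274 CPM and Dcn at 376 against 58.6 CPM. Set against the other mural subclusters, fibroblast markers scored highest in both of these subclusters. Their pericyte-like name rests on comparing their markers with all clusters of the data, not on the class of their cells in the first clustering. Microglia markers summed to 28.4 and 75.3 CPM. The part of these other cell types in the values was not tested. The smooth muscle-like subcluster of 170 cells had 1526 CPM of Mt1 and 81.7 CPM of Mt2, with 14639 CPM of Acta2.

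The regulators and partners of metallothioneins were read in the same comparison, over lists of genes of which those with at least 20 CPM over both sets of cells were counted. This minimum leaves out genes that are low in the larger set, so the counts do not cover whole lists. It is read over both sets together, so a gene low in the larger set could also pass through a high level in the subcluster, as Timp1, Gclm and Gclc did. All list counts stand beside the 7.68% of all genes that were higher and the 17% that were lower. The Il11-highest subcluster came from libraries 4 and 6 alone, and the other cells from all 6 libraries. Differences between libraries are therefore mixed into the list values and into these shares of all genes. Ratios inside libraries 4 and 6 were made for the members and Il11 only. Of the metal-responsive factors and the receptors for metallothionein, 3 of 4 were counted. Mtf1, which encodes MTF-1, was higher in the Il11-highest subcluster, at 60.02 against 20.3 CPM or 2.96 times (1.66–5.06). Lrp1, a receptor for extracellular metallothionein, was lower, at 85.3 against 291 CPM. Mtf2 did not differ by 2 times (47.4 and 41.6 CPM).

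Of 12 zinc importers 6 were counted, with Slc39a1 (250 and 119 CPM) and Slc39a6 (72.7 and 27.1 CPM) higher and Slc39a10 (22.1 and 61.9 CPM) lower. Slc39a14, an importer under the minimum, had 47.4 and 5.07 CPM, or 9.35 times (4.21–20.9). The intervals of the other uncounted importers all included 1. Of 9 zinc exporters 4 were counted, and Slc30a10, which is known mainly as a manganese exporter, was lower at 164 against 565 CPM. Slc30a1, the exporter of the plasma membrane and itself a target of MTF-1, fell under the minimum, with 19.0 and 19.2 CPM. Slc30a9 had 53.7 and 49.9 CPM. Of 8 copper genes 7 were counted, and the transporter Slc31a2 was lower (15.8 and 47.8 CPM). The copper chaperones Atox1 (259 and 152 CPM) and Cox17 (107 and 200.5 CPM) did not pass 2 times. Over the counted genes the median log2 difference was −0.03 for importers, 0.07 for exporters and 0.23 for copper genes, beside −0.17 for all genes. The 1 lower gene in each of these short lists stands beside the 17% of all genes that were lower, and no result is read from it.

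Lists for other known inputs to Mt1 and Mt2 are read beside the 7.68% of all genes that were higher, the 17% that were lower and the median log2 difference of −0.17 over all genes. Of the STAT3 response list, 5 of 6 counted genes were higher, with a median log2 difference of 1.251, among them Junb (828 and 359 CPM), Timp1 (619 and 5.07 CPM), Stat3 (243 and 91.6 CPM) and Osmr (221 and 92.3 CPM), the receptor of oncostatin M. Socs3, the feedback inhibitor of this pathway, was 123 and 36.5 CPM. Timp1 was counted only through its level in the subcluster. Of the hypoxia list 6 of 9 were higher and none lower, with a median of 1.04, led by Ldha (625 and 299.3 CPM), Pgk1 (408 and 112 CPM), the glucose transporter Slc2a1 (265 and 34.0 CPM) and Hif1a (193 and 90.5 CPM). Ndrg1 had 19.0 and 26.8 CPM. Of the Nrf2 list, which covers the antioxidant response, 3 of 4 were higher, namely Txnrd1 (183 and 50.7 CPM), Gclm (120 and 16.6 CPM) and Gclc (69.5 and 18.1 CPM), with a median of 1.59. Gclm and Gclc were counted only through their level in the subcluster, so the count and median lean on them. Of the other counted genes, Txnrd1 was higher and Nfe2l2, which encodes Nrf2, was called in neither direction (94.8 and 99.5 CPM). Hmox1, under the minimum, had 111 and 5.43 CPM.

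Of 10 counted genes of the glucocorticoid list, 4 were lower, namely Klf9 (202 and 665 CPM), Tsc22d3 (50.5 and 171 CPM), Zbtb16 (6.32 and 36.5 CPM) and Sult1a1 (3.16 and 86.1 CPM). Cdkn1a was higher, at 167 and 45.6 CPM, and the other 5 were called in neither direction, among them Sgk1 with 37.9 and 42.3 CPM. The genes of this list under the minimum were Fkbp5, with 41.1 and 15.2 CPM or 2.70 times (1.33–5.13), and Pdk4, with 0 and 6.15 CPM. The median log2 difference of the list was −0.19, beside −0.17 for all genes.

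Genes with patterns like those of the members were sought over 47 points, each a class in 1 library with at least 20 cells, from 11 classes, among 7297 genes with a mean of at least 20 CPM. These correlations of log2(CPM + 10) are descriptions, since points share libraries and classes. Mt1 was most like S100a1 (r = 0.84) and Tmbim1 (0.83), followed by Mt2 (0.82), Slc35e4 (0.79) and Nacc2 (0.79). Mt2 was most like Mt1, then Rapgef3 (0.82), Ddah1 (0.81), Gstm1 (0.81) and Fgd6 (0.81). Mt3 was most like Aldoc (0.99), Cspg5 (0.97), Slc1a2 (0.97), Cbs (0.97) and Slc7a10 (0.97), which are known as genes of astrocytes. Between the members, r was 0.59 for Mt1 and Mt3 and 0.66 for Mt2 and Mt3.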

How the data were processed

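The study measured RNA of single cells with 10x 3′ libraries from 6 samples. The authors deposited 1 pooled matrix of UMI counts, made with Cell Ranger 5.0.1 per the file header and with mm10 per their processing notes. Their methods state that its aggregation step evened out sequencing depth between libraries, which can thin the reads of deeper ones before counting, so depths here are those after this step. The counts were used as deposited. The 6 numbered libraries were not mapped to samples, so each value is given per library, and 6 libraries stayed out of any comparison of groups. Numbers of cells per library and depths are given above.

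Barcodes were kept as cells with at least 200 features, at most 10% mitochondrial UMIs, and at least 0.1 times the UMIs of the 99th percentile of the 3000 largest barcodes. Counts were scaled to 10000 per cell, and 2000 variable genes, 30 principal components (15 for mural cells), 20 neighbours and Leiden clustering (leidenalg 0.10.2, igraph 0.11.9, resolution 0.8, seed 1) were used, without the metallothioneins, Il11 and the listed genes. Clusters were named from marker lists when at least 3 markers were raised 2 times over the median of all clusters, also for mural subclusters. Rules for clusters led by hemoglobin genes, or with leading markers of another class, were adapted after the clusters had been seen. Doublets were scored against simulated ones (323 cells, 1.86%), kept, and left out in an alternative. UMIs were summed over cells and given as CPM with exact Poisson intervals, ratios with exact conditional intervals and shares with Clopper-Pearson intervals, all at 95%. Cells were thinned to 1000 UMIs where shares were compared, and none was shallower. With 1 library per group no test was run. Classes are shown with at least 50 cells, libraries with at least 20 cells of a class, and lists with at least 20 CPM. A library at 0 was set to 3 counts for a span. Scripts were tested on simulated data with numpy 2.4.6, scipy 1.17.1 and pandas 2.3.3. The genes named are the members, Mt4, Il11, markers and leading genes of clusters, and the 5 genes most like each member. Of each list, at most the 4 highest by CPM in each direction past 2 times and the 2 highest over all cells are named. Fkbp5 and Pdk4, the uncounted genes of the glucocorticoid list, and the uncounted importer Slc39a14 were added after the results were known. The members and lists were chosen with earlier results of these data known.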

Additional observations from a re-analysis of the deposited data

How the results depend on the processing

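Of 104 values recomputed under other settings, 64 stayed within the counting interval of the value reported and 40 moved outside it or by more. Of the ratios between classes or between mural cells, 0 changed direction. The library spans, always highest over lowest, and Mt2 per Mt1 could not change direction in this count. A span also could not move when the library left out was neither its highest nor its lowest, and such values are among the 64. In all settings astrocyte-like cells were set against the class that came next in the values reported. This ratio was 4.30 for Mt1 with doublets removed, 4.01 as the mean of the cells' own CPM and 4.41 with free RNA at 5% subtracted. For Mt2 it was 4.45 as the mean of the cells' own CPM and 4.54 at a clustering resolution of 1.2, and for Mt3 it was 489.6 with free RNA subtracted. Mt2 per Mt1 was 0.143 as a mean over cells and 0.134 over all barcodes. The library span of Mt2 in endothelial cell-like cells was 5.19 in the largest cluster alone.

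The ratio of the Il11-highest subcluster to other pericyte-like mural cells was 17.03 for Mt1 as a mean over cells, and 19.3 for Mt1 and 61.5 for Mt2 with free RNA subtracted. Settings chosen after seeing the data gave 33.2 and 111 without the Ccl19-led subcluster, 28.5 and 92.7 in library 4 alone, and 5.69 and 16.5 in library 6 alone. The cause of these shifts was not tested. Removing the 52 cells with a barcode of another library moved no value outside its interval.

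Leaving out each library in turn gave 4.005 to 4.31 for Mt1, 3.98 to 5.19 for Mt2 and 99.1 to 154 for Mt3 between classes. Here the class set against astrocyte-like cells was not chosen again, so it need not be the next class among the libraries left. Mt2 per Mt1 was 0.122 to 0.137. The span of Mt2 was 2.80 to 6.37 in endothelial cell-like and 1.97 to 2.60 in astrocyte-like cells. In the subcluster the ratios were 10.2 to 21.7 for Mt1 and 29.4 to 64.2 for Mt2. No paired analysis was possible because each group has 1 library and the library numbers carry no pairing. With 58 cells in the subcluster and 22 choroid plexus-like cells, single cells can set a level.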

Other observations

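Small classes with high pooled metallothionein levels stood outside the comparisons of classes. The 31 fibroblast-like cells, which had all 6 fibroblast markers raised, had 2934 CPM of Mt1 (2700–3183) and 1047 CPM of Mt2 (909–1200), and only 3 UMIs of Mt3. Of their Mt1 UMIs 179 lay in 1 cell, and without it the levels were 2143 CPM of Mt1 and 738 CPM of Mt2. Mt1 was 4316, 5927 and 3329 CPM in libraries 2, 4 and 6, with 7, 2 and 11 cells. It was only 417, 416 and 488 CPM in libraries 1, 3 and 5, with 3, 5 and 3 cells. The 22 choroid plexus-like cells had 2588 CPM of Mt1 and 843 CPM of Mt2, but 1 cell held 223 of the 442 Mt1 UMIs, and without it the levels were 1346 and 295 CPM. These cells came from libraries 3, 4 and 6, with 11, 8 and 3 cells. In these libraries Mt1 was 302, 470 and 15574 CPM and Mt2 was 0, 18.8 and 5725 CPM. The 3 cells of library 6 thus held 389 of the Mt1 UMIs and 143 of the 144 Mt2 UMIs. Over all 22 cells Mt3 exceeded Mt1 by 2.06 times (1.83–2.31). By library there were 11.8, 12.1 and 0.710 Mt3 UMIs for each Mt1 UMI, so Mt1 exceeded Mt3 in library 6. In astrocyte-like cells there were 0.582 Mt3 UMIs (0.574–0.590) for each Mt1 UMI.

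In the macrophages named monocyte-derived, Mt1 was 815 CPM in library 4 and 748 CPM in library 6, and Mt2 was 62.1 and 27.0 CPM. In library 4, single cells held 164 of the 892 Mt1 UMIs and 42 of the 68 Mt2 UMIs, so no difference between these libraries is read from them. In neutrophil-like cells Mt1 was 25.0 CPM in library 3, 377 CPM in library 4 and 91.8 CPM in library 6. A single cell of the 178 held 55 of the 157 UMIs of this class.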
